A study of Mus musculus with 8 samples.

Results

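A set of 10 genes of antigen presentation was followed in the livers of db/db mice: the class I heavy chains H2-K1 and H2-D1, their light chain B2m, the loading factor Tapbp and the class I regulator Nlrc5, and the class II chains H2-Aa, H2-Ab1 and H2-Eb1, the invariant chain Cd74 and the class II regulator Ciita. They were chosen by symbol, so that the members were 10 of 41388 features in the deposited files, and all 10 were among the 12270 genes that passed the filter on low counts. Livers came from littermate db/db mice, which lack a working leptin receptor and become obese and diabetic. The mice were randomised at 5 weeks of age, were given adenovirus through the tail vein to overexpress either green fluorescent protein (AdGFP, 4 mice, genotype label control) or nicotinamide phosphoribosyltransferase (AdNAMPT, 4 mice, genotype label NAMPT overexpression), and were 10 weeks old per the labels, after 4 to 5 weeks of overexpression. Both groups therefore share the db/db genotype and an adenovirus, and neither an uninjected nor a lean group enters the comparison. The strain label of all 8 libraries reads C57B/6J, and the promoter that drove the transgene is not given in the sources used here. The 4 to 5 weeks of overexpression are those recorded for the samples. The paper's methods, and its figure legend for adipose tissue of db/db mice, name shorter times after adenovirus. Which time holds for these livers is not settled here.

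Class I molecules, a heavy chain bound to beta-2 microglobulin, carry peptides from inside the cell and are made by nearly all nucleated cells, hepatocytes included. Class II molecules, an alpha chain paired with a beta chain, carry peptides from engulfed material and are made mainly by dendritic cells, macrophages and B cells, which in liver include Kupffer cells. Nlrc5 and Ciita are related coactivators that do not bind DNA themselves but join a complex of RFX, CREB and NF-Y on the conserved S, X and Y boxes of class I and class II promoters, and interferon gamma induces both.

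Promoter sequence was examined because the members are known to share these boxes. RefSeq promoter windows of GRCm38.p6 were matched by symbol for 6 of the 10 members (H2-K1, H2-D1, B2m, H2-Aa, H2-Eb1 and Tapbp), and the 250 bases before each start were searched on both strands. The stretches printed below run from 200 to 6 bases before the start, 5′ to 3′ on the strand of the gene, and show a class II alpha and beta chain, a class I heavy chain and the class I light chain. Capitals mark 4 motifs, on either strand. The first is the core of the Y box, ATTGG, to which NF-Y binds. A further motif, TGACG, is the core of the X2 box. GGGATTCCC is the NF-kB site known from class I promoters. TTTCACTT is part of an interferon-response element. In H2-Aa, TGACG occurs on both strands and the 2 occurrences overlap. The stretches lie at chr17:34287829-34288023 (minus strand) for H2-Aa, chr17:34305667-34305861 (plus strand) for H2-Eb1, chr17:34000353-34000547 (minus strand) for H2-K1 and chr2:122147487-122147681 (plus strand) for B2m.
H2-Aa: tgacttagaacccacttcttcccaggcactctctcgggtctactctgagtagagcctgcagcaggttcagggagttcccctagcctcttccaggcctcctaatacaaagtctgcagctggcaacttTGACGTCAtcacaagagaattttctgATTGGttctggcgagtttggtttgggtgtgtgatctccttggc
H2-Eb1: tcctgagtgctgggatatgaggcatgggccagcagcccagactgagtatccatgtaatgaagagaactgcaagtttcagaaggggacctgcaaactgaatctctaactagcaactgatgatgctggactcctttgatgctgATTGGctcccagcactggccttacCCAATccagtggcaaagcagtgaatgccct
H2-K1: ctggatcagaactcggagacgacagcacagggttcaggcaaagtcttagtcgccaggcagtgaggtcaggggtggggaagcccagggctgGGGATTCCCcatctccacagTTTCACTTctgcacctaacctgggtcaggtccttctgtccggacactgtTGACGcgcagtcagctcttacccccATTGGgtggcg
B2m: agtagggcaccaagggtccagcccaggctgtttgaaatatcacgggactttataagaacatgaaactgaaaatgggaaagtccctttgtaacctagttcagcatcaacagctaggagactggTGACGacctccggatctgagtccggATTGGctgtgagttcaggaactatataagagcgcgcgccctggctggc

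ATTGG was found in 6 of the 6 windows, against 33.8% of all 32851 promoter windows. TGACG was found in 4 of 6 (B2m, H2-K1, H2-Aa and H2-D1), against 17.8% of all windows. H2-K1 and H2-D1 also held GGGATTCCC, which 0.301% of all windows held, and TTTCACTT, which 1.36% held. The motifs were chosen as known features of class I and class II promoters, so matches in the members were likely in advance. The shares beside them are a description and not a test. The window of H2-D1 lies within the first exon of the deposited gene model, so its matches are to sequence that the files count as transcribed. In H2-Aa and B2m the X2 core began 74 and 78 bases before the start and the Y core 48 and 53 bases before it. Positions relative to the start differed in the other windows. The X2 core and the nearest Y core lay about equally far apart in H2-Aa, B2m, H2-K1 and H2-D1. In H2-K1 the X2 core began at 41 and the Y core at 16 bases, and in H2-D1 the X2 core at 101 and the Y core at 76 and 53. H2-Eb1 and Tapbp held no TGACG, with the Y core at 59 and 35 bases in H2-Eb1 and far from the start, at 248 and 165 bases, in Tapbp. A match describes the letters of the assembly in a window and is not a measured binding site. No match says only that the letters are not in that window. The promoter letters of these mice were not examined and may differ from the assembly.

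Libraries held 12006713 to 19879814 counts, so that the smallest amount taken as detectable, 3 counts, was 0.151 to 0.250 CPM (counts scaled to the total of the library). Counts were compared with limma on TMM-scaled counts, with Benjamini-Hochberg adjustment over all 12270 genes and a threshold of 0.05. The TMM factors were 0.947 to 0.977 in AdGFP and 1.01 to 1.05 in AdNAMPT. CPM values do not use these factors, so in CPM the AdNAMPT libraries stand higher beside AdGFP than on the TMM scale. Nampt itself did not separate the groups (133 ± 21.7 CPM in AdGFP and 154 ± 25.3 CPM in AdNAMPT, mean ± SD, n = 4 each; adjusted p = 0.915 by limma), so AdNAMPT below means the libraries labelled so. AdNAMPT replicate 1 had the fewest counts and the lowest sample weight in the fit, 0.440. Markers of hepatocytes were plentiful in all 8 libraries, their 7 genes summing to 94161 to 120288 CPM. Because whole liver was sequenced, fewer cells of a type and less RNA per cell cannot be told apart in any value below.

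No member passed the test: limma called 0 of 10, beside 34 of 12270 genes (0.277%) in either direction and 0.0163% of genes called higher in AdNAMPT. The edgeR quasi-likelihood test, the edgeR exact test and the DESeq2 Wald test also called 0 of 10 members, beside 0.269%, 0.53% and 0.612% of the genes they tested. The fitted log2 fold change was above 0 for 9 of 10 members, against 50.4% of all genes, and the median of the members was 0.27, against 0.00 over all genes tested. Before adjustment, limma put 4 of 10 members (Tapbp, Nlrc5, H2-Ab1 and Ciita) under 0.05 and higher in AdNAMPT, where 4.65% of all genes were. The count was 1 of 10, Tapbp alone, by voom without sample weights, by limma with no filter on low counts, by limma without AdGFP replicate 4 and by each of the 3 other tools. The 3 other tools put 8.0%, 6.7% and 6.85% of all genes under 0.05 in either direction, in the order above. The 2 groups did not overlap for 1 of 10 members, Tapbp, where 2.09% of all genes were separate and higher in AdNAMPT. The members are on 1 pathway and several share regulators, so they are not independent of each other. They were also chosen with earlier results of these data known, so their shares beside those of all genes are a description and not a test.

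**Figure D1:**
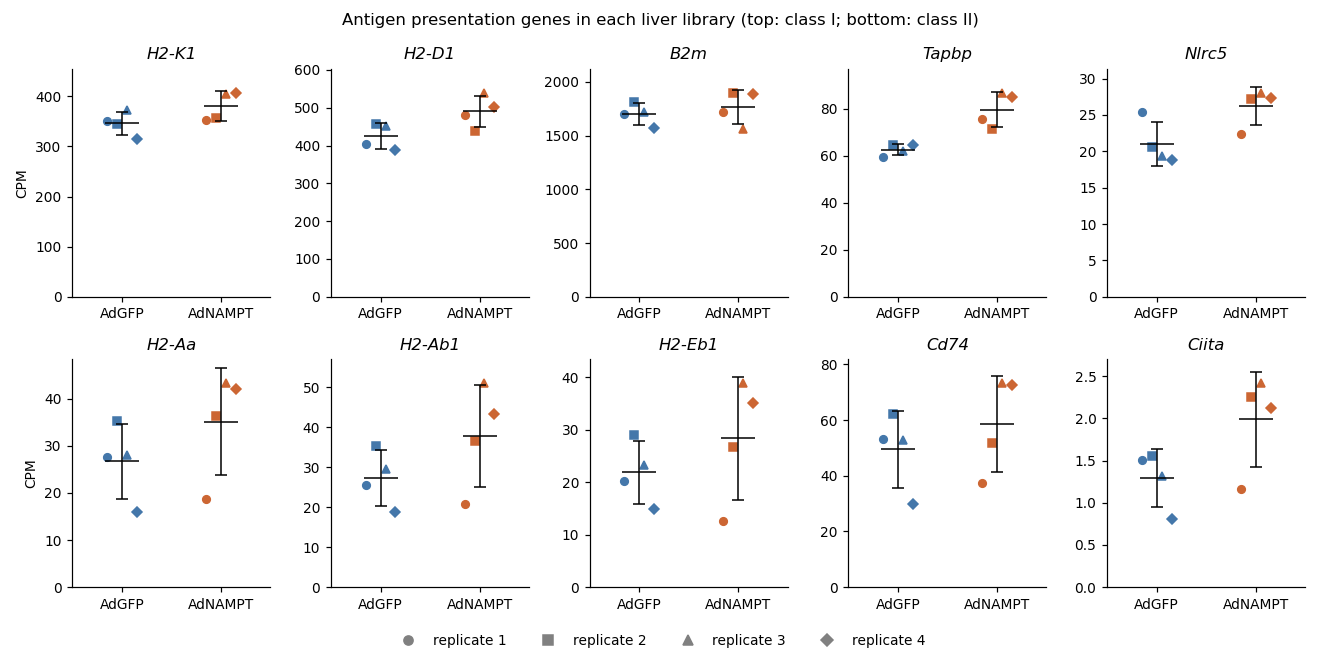
CPM (y axis, from 0, own scale per gene) of the 10 genes in each library, AdGFP in blue and AdNAMPT in orange, with marker shape for the replicate and a bar and whiskers for mean ± SD (n = 4). Of the 10, Tapbp is the gene without overlap between the groups, and in the class II row AdGFP replicate 4 and AdNAMPT replicate 1 are the lowest of their groups.

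Among the class I genes, the heavy chains and the light chain differed little between groups. H2-K1 (ENSMUSG00000061232, chromosome 17, 33996017 to 34000333, GRCm38), a classical heavy chain, measured 351, 345, 372 and 316 CPM in the AdGFP libraries (replicates 1 to 4, an order kept below) and 353, 357, 405 and 407 CPM in the AdNAMPT libraries. The groups overlapped, with AdNAMPT replicates 3 and 4 above all AdGFP libraries. The fitted difference was 0.05 ± 0.08 (log2 fold change ± SE, limma, adjusted p = 0.904), a fold of 1.03 with a 95% confidence interval of 0.910 to 1.17. H2-D1 (ENSMUSG00000073411, chromosome 17, 35262730 to 35267499), the other classical heavy chain of the C57BL/6 annotation, was at 404, 456, 452 and 389 CPM in AdGFP and at 480, 439, 539 and 502 CPM in AdNAMPT. In CPM, AdNAMPT replicate 2 lay within the AdGFP range and the other 3 above it. On the log2 TMM-scaled CPM scale AdNAMPT replicate 1, at 8.86, also lay within that range, below AdGFP replicate 2 at 8.95. The fold was 1.08 (0.939 to 1.24, adjusted p = 0.745 by limma).

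B2m (ENSMUSG00000060802, chromosome 2, 122147686 to 122153083), the light chain that every class I heavy chain needs to reach the surface, was at 1703, 1812, 1722 and 1567 CPM in AdGFP and at 1718, 1897, 1566 and 1892 CPM in AdNAMPT. In CPM its lowest AdNAMPT library, replicate 3, was level with its lowest AdGFP library, replicate 4. The fold was 0.994 (0.856 to 1.15, adjusted p = 0.986 by limma), and the sign of this difference near 0 turned with library size alone as the scaling, with a GC correction and without single libraries. Beside H2-D1 and H2-K1 in the same libraries, B2m held the narrow spread typical of the class I genes here, 0.38 between its highest and lowest library on the log2 TMM-scaled CPM scale.

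Tapbp (ENSMUSG00000024308, chromosome 17, 33915899 to 33929288) encodes tapasin, which holds empty class I molecules at the peptide transporter. It was at 59.6, 64.3, 61.8 and 64.7 CPM in AdGFP and at 75.6, 71.3, 86.6 and 84.8 CPM in AdNAMPT, so that each AdNAMPT library lay above each AdGFP library. On the log2 TMM-scaled CPM scale the groups were close, with AdNAMPT replicate 2 at 6.16 and AdGFP replicate 2 at 6.13. The fitted difference was 0.24 ± 0.08 (fold 1.18, 1.05 to 1.33), with an unadjusted p of 0.00925 and an adjusted p of 0.395 by limma. Exons of Tapbp overlap Zbtb22 on the same strand and Gm19412 on the opposite strand, and the strand setting of the counting is not given in the sources used here.

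Nlrc5 (ENSMUSG00000074151, chromosome 8, 94472763 to 94527272), the class I coactivator, was at 25.4, 20.5, 19.3 and 18.8 CPM in AdGFP and at 22.4, 27.2, 28.0 and 27.3 CPM in AdNAMPT. AdNAMPT replicate 1 lay within the AdGFP range, whereas the other 3 AdNAMPT libraries lay above all AdGFP libraries. The fold was 1.21 (1.02 to 1.43), with an unadjusted p of 0.0301 and an adjusted p of 0.487 by limma.

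All 5 class II genes had a fitted difference above 0, with a median of 0.47, and each had overlapping groups. The alpha chain H2-Aa (ENSMUSG00000036594, chromosome 17, 34282744 to 34287827) was at 27.7, 35.3, 28.0 and 15.9 CPM in AdGFP and at 18.7, 36.3, 43.3 and 42.1 CPM in AdNAMPT. Its partner H2-Ab1 (ENSMUSG00000073421, chromosome 17, 34263209 to 34269418), the beta chain of the A molecule, was at 25.6, 35.4, 29.6 and 18.8 CPM in AdGFP and at 20.7, 36.4, 50.9 and 43.1 CPM in AdNAMPT. In both genes AdNAMPT replicate 1 was below 3 of the AdGFP libraries, and the remaining 3 AdNAMPT libraries were above the highest AdGFP library in CPM. On the log2 TMM-scaled CPM scale AdNAMPT replicate 2 lay below AdGFP replicate 2 in both. The values were 5.18 and 5.27 for H2-Aa, and 5.19 and 5.27 for H2-Ab1. The fold was 1.39 for H2-Aa (0.951 to 2.03, adjusted p = 0.583 by limma) and 1.42 for H2-Ab1 (1.01 to 1.99, adjusted p = 0.507 by limma). Without AdGFP replicate 4 the log2 estimate of H2-Aa went from 0.47 to 0.23 and that of H2-Ab1 from 0.50 to 0.33, and the edgeR and DESeq2 tests put H2-Aa at 0.29.

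H2-Eb1 (ENSMUSG00000060586, chromosome 17, 34305877 to 34316199), the beta chain of the E molecule, was at 20.3, 29.0, 23.2 and 14.8 CPM in AdGFP and at 12.6, 26.7, 38.8 and 35.1 CPM in AdNAMPT. AdNAMPT replicate 1 was the lowest of all 8 libraries and AdNAMPT replicates 3 and 4 the highest, and the fold was 1.34 (0.903 to 1.99, adjusted p = 0.646 by limma). Its log2 estimate of 0.42 was 0.24, 0.23 and 0.25 without AdGFP replicate 4, AdNAMPT replicate 3 and AdNAMPT replicate 4, and 0.23 by voom without sample weights. Cd74 (ENSMUSG00000024610), the invariant chain that guides class II molecules to the endosome, was at 53.2, 62.2, 53.0 and 29.8 CPM in AdGFP and at 37.5, 51.6, 73.1 and 72.4 CPM in AdNAMPT. For Cd74, AdNAMPT replicates 1 and 2 lay within the AdGFP range, and the fold was 1.20 (0.832 to 1.73, adjusted p = 0.771 by limma). With single libraries left out in turn, the Cd74 estimate ran from 0.01 (without AdGFP replicate 4) to 0.42 (without AdNAMPT replicate 2) on the log2 scale.

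Ciita (ENSMUSG00000022504, chromosome 16, 10488178 to 10527564), the class II coactivator, had the highest fitted fold of the 10 and the fewest reads. It drew 22, 22, 22 and 11 reads in AdGFP (1.50, 1.55, 1.31 and 0.804 CPM) and 14, 33, 48 and 36 reads in AdNAMPT (1.17, 2.25, 2.41 and 2.12 CPM). AdNAMPT replicate 1 lay within the AdGFP range and the other 3 above it. The fold was 1.61 (1.08 to 2.41), with an unadjusted p of 0.0247 and an adjusted p of 0.466 by limma. Counting error alone was wide at this depth, since the 11 reads of AdGFP replicate 4 have an exact 95% Poisson interval of 0.401 to 1.44 CPM and the 48 reads of AdNAMPT replicate 3 one of 1.78 to 3.20 CPM. Exons of Ciita overlap Dexi on the opposite strand.

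**Figure D2:**
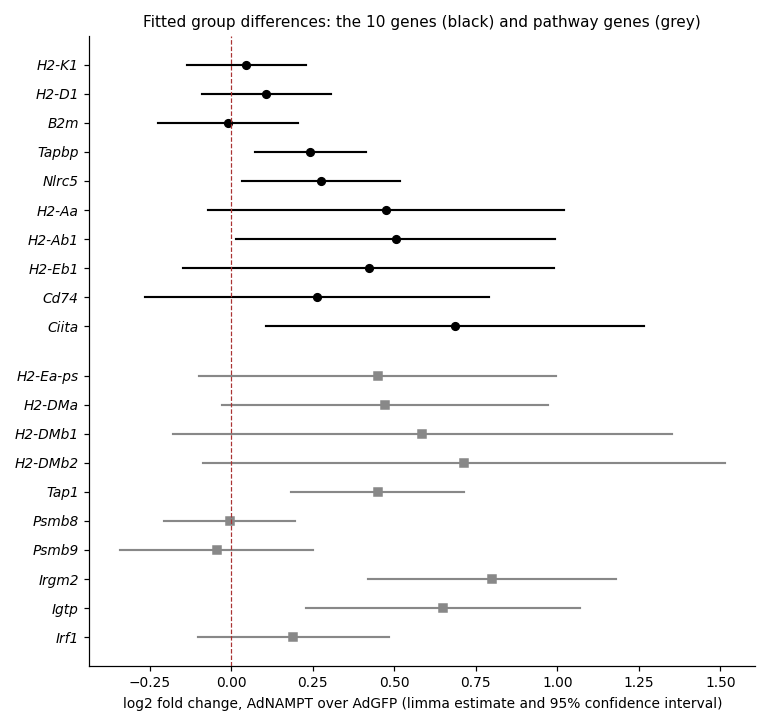
Fitted log2 fold change, AdNAMPT over AdGFP (x axis), of the 10 genes in black and of pathway genes in grey, each with the 95% confidence interval from limma; the dashed line is no difference. The class I chains sit near 0 with short intervals, and the class II genes sit between 0.26 and 0.69 with long ones; no gene shown passed the adjusted threshold.

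The class II genes varied between mice more than the class I genes did. Between the highest and the lowest of the 8 libraries, class II genes spanned 1.21 (Cd74) to 1.61 (H2-Eb1) on the log2 TMM-scaled CPM scale, and class I genes 0.30 (H2-K1) to 0.47 (Nlrc5). The coefficient of variation of CPM within AdNAMPT was 28.2% to 41.1% for the class II genes and 7.69% to 9.84% for the class I genes, and within AdGFP it was 25.5% to 30.0% and 3.79% to 14.3%. The spread of the class II genes came from the same libraries in both groups: their 5 CPM values summed to 128, 163, 135 and 80.2 in AdGFP and to 90.7, 153, 209 and 195 in AdNAMPT. AdGFP replicate 4 and AdNAMPT replicate 1 were the lowest of their groups in each of the 5 genes.

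**Figure D3:**
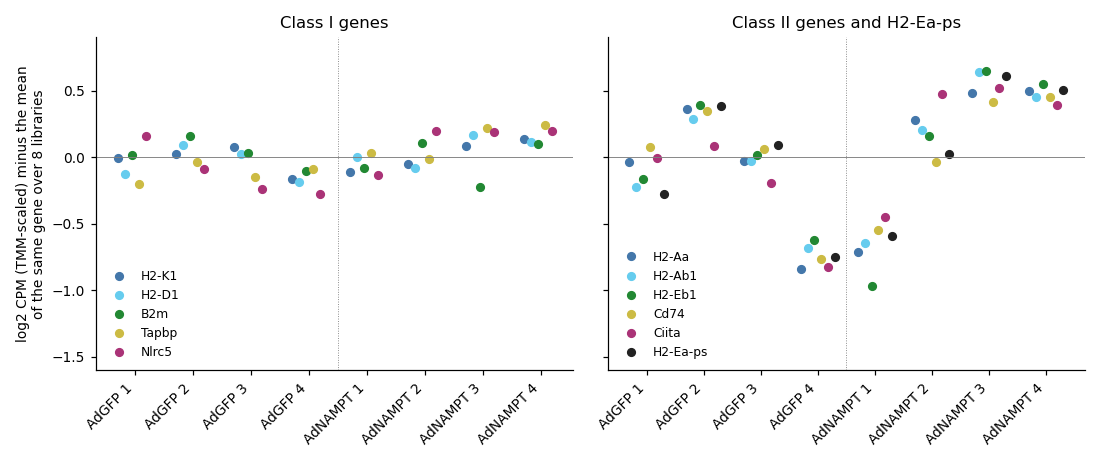
Log2 TMM-scaled CPM of each gene minus its own mean over the 8 libraries (y axis), by library (x axis, the dotted line divides the groups), for the class I genes on the left and the class II genes with H2-Ea-ps on the right; each point is 1 gene in 1 library. The class II genes lie close together within a library and are lowest in AdGFP replicate 4 and AdNAMPT replicate 1, while the class I genes stay within a narrow band.

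Markers of the cells that mainly carry class II, and of other cells beside them, were summed in the same libraries. The 11 macrophage and Kupffer markers (Adgre1, Clec4f, Vsig4 and others) summed to 389, 430, 448 and 352 CPM in AdGFP and to 267, 289, 407 and 434 CPM in AdNAMPT. The same AdGFP replicate 4 and AdNAMPT replicate 1 were thus lowest of their groups here too. Between groups the estimates of these markers had the opposite sign to those of the class II genes: 0 of 11 were above 0, where 50.4% of all genes were. Limma called 0 of the 11 and put Clec4f, Vsig4 and Timd4 under 0.05 before adjustment, where 9.69% of all genes were in either direction. Markers of 1 kind of cell are not independent of each other. Dendritic cell markers were sparse, with 6 of 9 under 1 CPM in all libraries and Cd209a at 0 in at least 1 library, and the 9 summed to 10.2 to 11.7 CPM in AdGFP and 11.2 to 13.8 CPM in AdNAMPT. B cell markers summed to 1.32 to 5.14 CPM in AdGFP and 3.41 to 4.30 CPM in AdNAMPT, with Ms4a1 and Pax5 among those at 0 in at least 1 library. T and NK cell markers summed to 3.43 to 5.51 CPM and 3.41 to 7.66 CPM, with Cd3d, Cd3e and Ncr1 at 0 in at least 1 library. AdGFP replicate 4 and AdNAMPT replicate 1 were also lowest of their groups in the B cell sum and in the T and NK cell sum. AdGFP replicate 4 was not the lowest of AdGFP in the dendritic, the monocyte and neutrophil or the endothelial sum. Monocyte and neutrophil markers summed to 10.9 to 13.1 CPM and 9.83 to 17.9 CPM, with Ly6g at 0 in at least 1 library, and the 7 sinusoidal endothelial markers to 280 to 333 CPM and 314 to 351 CPM. The part of these cells in the class II values was not tested.

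Because Nlrc5 and Ciita act on the other members, their levels were set against those of their targets over the 8 libraries. Of the 8 pairs examined, 4 passed an exact permutation test with Benjamini-Hochberg adjustment, all of them with Ciita. Pearson's r of Ciita on the log2 TMM-scaled CPM scale was 0.94 with H2-Aa (raw exact p = 0.000744, adjusted p = 0.00595), 0.92 with H2-Ab1 (raw 0.00164, adjusted exact p = 0.00655), 0.85 with H2-Eb1 (raw 0.00717, adjusted exact p = 0.0143) and 0.86 with Cd74 (raw 0.00613, adjusted exact p = 0.0143). Spearman's rho was 0.86, 0.90 and 0.88 with the 3 chains (adjusted exact permutation p = 0.0286 for each) and 0.71 with Cd74 (adjusted exact permutation p = 0.115). Without the 2 libraries farthest from the median of Ciita, AdGFP replicate 4 and AdNAMPT replicate 1, r was 0.82, 0.78 and 0.69 with H2-Aa, H2-Ab1 and H2-Eb1, and 0.37 with Cd74, so that the relation with Cd74 rests on those libraries. The pair with H2-Eb1 no longer passed without AdNAMPT replicate 3 (r = 0.81, adjusted exact permutation p = 0.052), and that with Cd74 no longer passed without AdGFP replicate 4, AdNAMPT replicate 1 or AdNAMPT replicate 3 (adjusted exact permutation p = 0.131, 0.0675 and 0.052). Of the other 12265 genes tested, 0.587% had an r with Ciita as high as the lowest of its 4 targets, and 0.0571% one as high as the highest. The permutations ran over all 8 libraries without regard to group. A difference between groups that both genes of a pair share is therefore part of r and of its p. With 4 libraries in each group no value of r within a group is given.

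Nlrc5 did not pass with any of its 4 class I targets. Its r was 0.49 with H2-K1 (raw 0.209, adjusted exact permutation p = 0.290), 0.30 with H2-D1 (raw 0.451, adjusted exact permutation p = 0.515), 0.12 with B2m (raw 0.795, adjusted exact permutation p = 0.795) and 0.50 with Tapbp (raw 0.217, adjusted exact permutation p = 0.290). Spearman's rho was 0.57, 0.48, 0.33 and 0.60 in the same order (adjusted exact permutation p = 0.202, 0.278, 0.428 and 0.202). Without the 2 libraries farthest from its median, AdGFP replicates 3 and 4, r was 0.55, -0.07, -0.07 and 0.26. Without AdGFP replicate 1, the library in which Nlrc5 was highest and Tapbp lowest of AdGFP, r with Tapbp was 0.80 (adjusted exact permutation p = 0.0486). High values also crossed the classes. Nlrc5 had an r of 0.865 with Ciita and of 0.60 to 0.71 with the other class II genes. H2-K1 had 0.93 with Cd74, 0.84 to 0.85 with the class II chains and 0.72 with Ciita, and B2m 0.21 to 0.38 with the class II genes. These pairs were not tested.

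**Figure D4:**
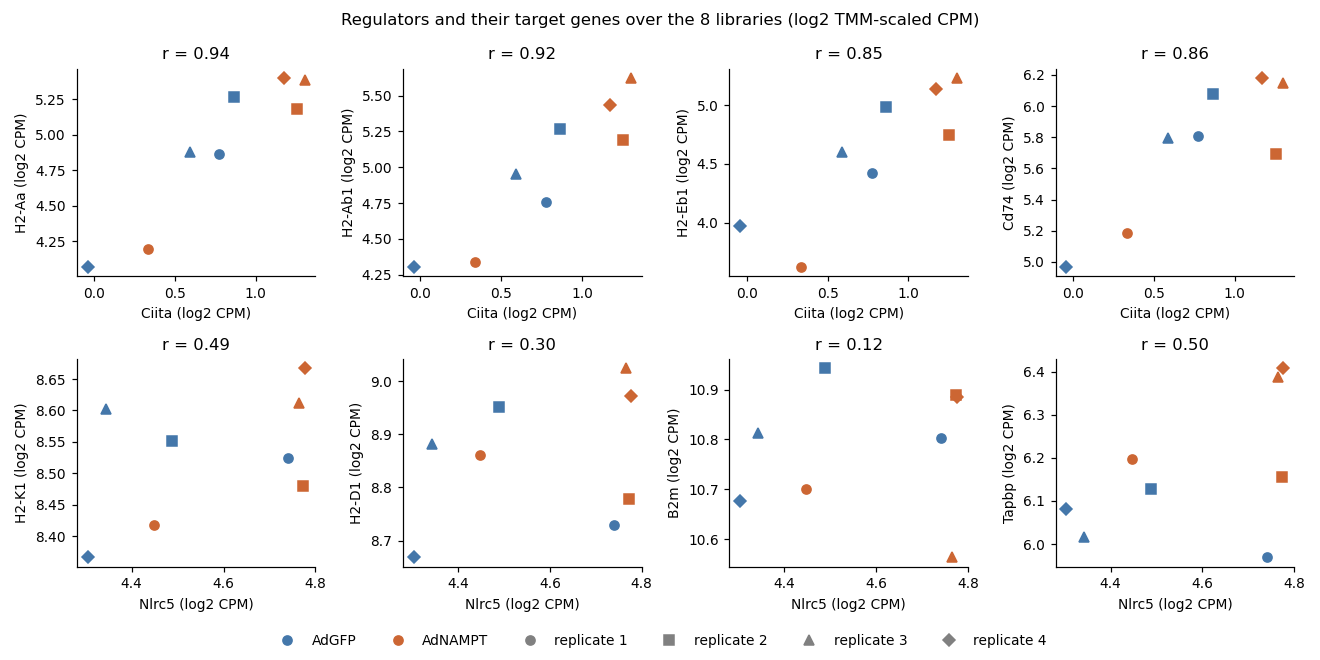
Log2 TMM-scaled CPM of a regulator (x axis) against a target (y axis), 1 point per library, AdGFP blue and AdNAMPT orange, marker shape for the replicate: Ciita with 4 class II genes above, Nlrc5 with 4 class I genes below, with Pearson's r over 8 libraries as the panel title. The upper panels run from lower left to upper right with r between 0.85 and 0.94; the lower panels scatter, with r between 0.12 and 0.50.

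Levels of different genes were compared per length, as RPKM (CPM per kilobase of exon). Over all 8 libraries B2m was at 2017 ± 149 RPKM (mean ± SD), followed by H2-D1 at 177 ± 19.1 and H2-K1 at 139 ± 11.7 RPKM. Cd74 was at 38.4 ± 10.9, Tapbp at 21.6 ± 3.15, H2-Eb1 at 21.2 ± 7.78, H2-Ab1 at 19.9 ± 6.76 and H2-Aa at 16.5 ± 5.40 RPKM. The regulators were lowest, with Nlrc5 at 3.09 ± 0.499 and Ciita at 0.312 ± 0.108 RPKM. The ranges of neighbours in this order overlapped for H2-D1 and H2-K1 and for each step from Cd74 to H2-Aa, and did not overlap between B2m and H2-D1, H2-K1 and Cd74, H2-Aa and Nlrc5, or Nlrc5 and Ciita. Within a library H2-D1 was 1.17 to 1.38 times H2-K1, H2-Aa was 0.741 to 0.943 times its partner H2-Ab1, and Cd74 was 1.65 to 2.41 times H2-Ab1, all as ratios of RPKM. H2-K1 and H2-D1 share long stretches with each other and with the H2-Q genes, and reads that fit several of them are absent from unique counts, so their levels are uncertain.

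By Pearson's r over the 8 libraries, the 5 tested genes most like H2-Ab1 outside the members were Gm10801 (0.99), H2-Ea-ps (0.98), Man2a2 (0.98), Rhou (0.98) and Cul7 (0.97). For H2-K1 they were Clec12a (0.97), Fam83g (0.97), Pnpla7 (0.96), 2010001A14Rik (0.95) and Hnmt (0.95). These values describe 8 points that share library and depth, and the genes were picked as the highest of 12270.

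H2-Ea-ps (ENSMUSG00000036322, chromosome 17, 34342933 to 34344643, annotated as a polymorphic pseudogene) is the alpha chain gene of the E molecule, which pairs with the product of H2-Eb1. As background, C57BL/6 mice carry a deletion in the promoter of this gene and do not express it, whereas several other haplotypes do. Here it drew 171, 253, 254 and 115 reads in AdGFP and 122, 222, 468 and 359 reads in AdNAMPT, or 17.0, 26.0, 22.1 and 12.3 RPKM and 14.8, 22.1, 34.3 and 30.8 RPKM. It was thus present in all 8 libraries at 0.978 to 1.39 times the RPKM of H2-Eb1. H2-Eb2, a class II gene on the same chromosome, drew 0 reads in each library, which at 3 counts allows up to 0.151 to 0.250 CPM. The difference between groups in H2-Ea-ps was 0.45 ± 0.25 (log2 fold change ± SE, adjusted p = 0.613 by limma). The haplotype of the mice was not tested, and the reads were aligned to the assembly of C57BL/6J, so that reads from other alleles of these polymorphic genes could be lost in both groups.

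**Figure D5:**
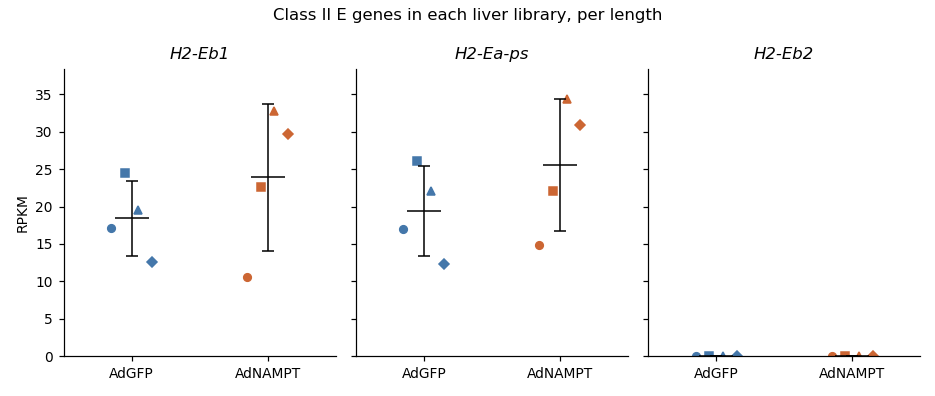
RPKM (y axis, from 0) of H2-Eb1, H2-Ea-ps and H2-Eb2 in each library, AdGFP blue and AdNAMPT orange, marker shape for the replicate as in the plot of CPM, bar and whiskers for mean ± SD (n = 4). H2-Ea-ps lies at 12.3 to 34.3 RPKM, close to H2-Eb1, and H2-Eb2 at 0 in all 8 libraries.

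The other genes of the pathway, in 6 lists of 73 genes of which 62 were tested, gave 0 called by limma, with 43 estimates above 0 and 19 below and a median of 0.14. Unadjusted limma p values were under 0.05 for 6 genes higher and 2 lower in AdNAMPT, together 8 of 62, where 9.69% of all genes were under 0.05 in either direction. The edgeR quasi-likelihood test, the edgeR exact test and the DESeq2 Wald test gave 6, 3 and 5 of 62, beside the 8.0%, 6.7% and 6.85% of all genes. Of the other class I heavy chains, 12 of 14 tested had estimates above 0 (median 0.15). H2-M3, which presents formylated peptides, had the largest of them at 0.47 ± 0.19 and the smallest p of the list (unadjusted p = 0.0351, adjusted p = 0.492 by limma). Cd1d1, which presents lipids, had the lowest at -0.19 ± 0.08 (unadjusted p = 0.042, adjusted p = 0.503 by limma).

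Of the genes that cut, carry and load class I peptides, 4 of 12 had estimates above 0 (median -0.02). Tap1, a subunit of the peptide transporter, was at 14.1, 13.0, 12.4 and 12.8 CPM in AdGFP and at 13.8, 17.5, 20.5 and 22.5 CPM in AdNAMPT. AdNAMPT replicate 1 lay within the AdGFP range and the other 3 above it, and the difference was 0.45 ± 0.12 (adjusted p = 0.300 by limma). Psmb9, an immunoproteasome subunit whose exons overlap Tap1 on the opposite strand, was at -0.05 ± 0.13, and Psmb8, another such subunit, at 0.00 ± 0.09 (adjusted p = 0.993 by limma). The lowest estimate was that of Pdia3, the disulphide isomerase of the loading complex, at -0.18 ± 0.08 (adjusted p = 0.503 by limma).

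Of the genes of class II loading and processing, 4 of 8 tested had estimates above 0 (median 0.21), and these were H2-Ea-ps and the chains of H2-DM, which exchanges peptides on class II molecules. H2-DMa was at 1.78 ± 0.191 CPM in AdGFP and 2.55 ± 0.809 CPM in AdNAMPT, H2-DMb1 at 1.09 ± 0.402 and 1.54 ± 0.683 CPM, and H2-DMb2 at 1.06 ± 0.462 and 1.58 ± 0.627 CPM. H2-DMb2 had the highest estimate of the list at 0.71 ± 0.36 (adjusted p = 0.573 by limma). March1, a ubiquitin ligase of class II, had the lowest at -0.32 ± 0.37, and Lgmn, an endosomal protease, the smallest p (-0.17 ± 0.08, unadjusted p = 0.0525, adjusted p = 0.524 by limma).

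Of the factors that bind MHC promoters, 10 of 12 had estimates above 0 (median 0.15), none with an unadjusted p under 0.05. Nfya, a subunit of NF-Y, had the highest at 0.25 ± 0.22, and Spi1, a myeloid factor, the lowest at -0.25 ± 0.21. Irf1, an interferon-induced factor, was at 0.19 ± 0.13 (adjusted p = 0.696 by limma). Of the 6 costimulation genes 2 were tested, with Cd274, an inhibitory ligand, at 0.38 ± 0.19 and Cd86, a ligand of CD28, at -0.08 ± 0.20.

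Of the genes of interferon gamma signalling and response, 12 of 14 tested had estimates above 0 (median 0.19). Ifng itself was under the filter, with 0, 0, 2 and 0 reads in AdGFP and 0, 3, 2 and 2 reads in AdNAMPT. Irgm2, an interferon-induced GTPase, was at 10.2 to 14.2 CPM in AdGFP and at 12.2, 19.1, 26.2 and 21.6 CPM in AdNAMPT. AdNAMPT replicate 1 lay within the AdGFP range and the other 3 above it, and the difference was 0.80 ± 0.17 (unadjusted p = 0.00072, adjusted p = 0.154 by limma). Igtp, another such GTPase whose exons overlap Irgm2 on the same strand, was at 22.8, 26.1, 21.9 and 22.9 CPM in AdGFP and at 17.7, 40.0, 42.2 and 47.1 CPM in AdNAMPT. Here AdNAMPT replicate 1 was the lowest of all 8 libraries and the other 3 were above all AdGFP libraries, and the difference was 0.65 ± 0.19 (adjusted p = 0.358 by limma). Without AdNAMPT replicate 1 both passed (Irgm2 0.93, adjusted p = 0.0128, and Igtp 0.81, adjusted p = 0.00215, by limma). That fit called 38 of 12465 genes. Neither gene passed in the main fit or in any other alternative. The highest estimate of the list was that of Cxcl9, a chemokine, at 0.84 ± 0.43 (adjusted p = 0.565 by limma), and the lowest that of Ifngr1, a receptor chain of interferon gamma, at -0.08 ± 0.09.

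No member passed when any single library was left out. The number of members under an unadjusted limma p of 0.05 then ran from 1, without AdGFP replicate 4, to 6, without AdNAMPT replicate 1, and was 2 without AdNAMPT replicate 3 or 4. Without AdNAMPT replicate 1, 5.42% of all genes were under 0.05 and higher in AdNAMPT. The groups then did not overlap for 3 of 10 members (Tapbp, Nlrc5 and Ciita), where 4.26% of all genes were separate and higher in AdNAMPT, and the median of the members was 0.36.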

How the data were processed

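Liver RNA from 4 AdGFP and 4 AdNAMPT db/db mice was sequenced. The authors aligned single reads with STAR (2.4.0b per the processing notes) to GRCm38 and counted unique, unambiguous reads per Ensembl gene with featureCounts 1.4.5. The deposited counts are whole reads. The deposited CPM values are counts scaled to the library total, and the deposited RPKM values are CPM per kilobase of exon; both were recomputed from the counts within a relative tolerance of 1e-06. Per the labels ribosomal RNA was depleted (Ribo-Zero), whereas the methods describe poly-A selection. Counting error per library is that of 12006713 to 19879814 counts without molecular identifiers.

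Symbols came from GENCODE M21 (40340 of 41388 features) and coordinates from the deposited files. After removal of 355 ribosomal RNA features, genes over 1 CPM in at least 3 libraries were kept, 12270 in all. TMM-scaled counts were fitted with limma 3.58.1 (voomWithQualityWeights, lmFit, eBayes; R 4.3.3) with group as the only term. Alternatives used edgeR 4.0.16, DESeq2 1.42.0, other scalings and filters, a GC correction, a replicate block and each library left out. On simulated counts for 12270 genes, the limma fit found 97 of 100 genes changed 3-fold and 80 of 100 changed 2-fold, with 5 false calls. The changed genes were above a floor on mean counts, and the simulated libraries were of equal quality. Changes under 2-fold were not simulated, and the fitted folds of all members are under 2-fold. These rates therefore do not give the power for the members. Correlations used exact permutation over all pairings of libraries (scipy 1.17.1). Members and gene lists were chosen with earlier results of these data known. Beside the members, each list names its smallest p and its extreme estimates, together with H2-Ea-ps, Ifng, Irf1, Tap1 and Psmb8; Psmb9, H2-DMa, H2-DMb1, Igtp, Cd86 and the genes named as markers are further examples, and Igtp passed in 1 alternative fit. The labels do not say more of the replicates than their numbers, each taken as a separate mouse. Some listed genes are not reported here by name.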

Additional observations from a re-analysis of the deposited data

Results flagged for a closer look

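A single value stood apart from the others of its group. Nlrc5 in AdNAMPT replicate 1 was at 22.4 CPM, where the other 3 AdNAMPT libraries were at 27.2 to 28.0 CPM, and its gap to the nearest of them was 0.862 of the range of the group. Of 40 groups of 4 libraries examined this was the only one that stood apart in this way, where chance gives about 2. The same library had the lowest sample weight.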

How the results depend on the processing

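Of 19 alternatives, each called 0 of 10 members, and the median log2 fold change of the members ran from 0.20 to 0.38. The number of genes called among all tested, 34, was 65 by the edgeR exact test and 75 by the DESeq2 Wald test, and 28 to 38 when 1 library was left out. Leaving out 1 library gave 0 to 2 pathway genes called, 1 to 3 members with groups that did not overlap, and 2 to 5 regulator and target correlations past the threshold. The sign turned for values near 0. H2-K1 ran from -0.0101 to 0.099 when 1 library was left out. B2m was at 0.0758 with library size alone as the scaling and at 0.0117 with a GC correction, and ran from -0.101 to 0.0671 when 1 library was left out. The r of Nlrc5 ran from -0.0452 to 0.507 with H2-D1 and from -0.0851 to 0.556 with B2m. The cause was not tested. Library size alone moved the median of all genes to 0.09 and that of the members to 0.35.

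Deviations from the group means of same-numbered libraries correlated at 0.225, -0.05, 0.213 and 0.01. Those of differently numbered libraries correlated at -0.301 to 0.239, so these values cannot settle whether replicate numbers pair the mice. With a replicate block 41 genes were called, 42 with a GC correction as well, and no member was called in either fit. Depth limits Ciita, with 11 to 48 reads, and Ifng, with 0 to 3.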
